A study of Mus musculus with 15 samples.

Results

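The tripartite motif (TRIM) genes were examined in tumor-associated macrophages (TAMs) from mouse hepatocellular carcinoma (HCC). Genes were taken when their symbol was Trim followed by a number and at most a letter and a further digit, which gave 68 of the 55335 genes in the expression table. The TAMs came from C57BL/6 mice that carried orthotopic HCC in the liver, grown from Hepa1-6 cells, a mouse hepatoma line. The tumor cells had been infected with a control lentivirus (control group), with a lentivirus that overexpresses miR-144 (miR-144 group) or with one that overexpresses miR-451a (miR-451a group), and they also carried luciferase. TAMs were sorted with antibodies to CD11b and to the macrophage antigen encoded by Adgre1, and each group had 5 samples, all described as untreated. The study's figure legend gives fewer samples per group for these data than were deposited, and all deposited samples were used. The miRNAs were overexpressed in the tumor cells and not in the macrophages, so the TAM libraries hold no check of the overexpression itself. Age and sex of the mice are not given in the sources used here, and the labels do not say that the 5 samples of a group came from separate mice, so p-values measure the spread between these samples.

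Most TRIM proteins share a RING domain, B-boxes and a coiled coil at their amino end, and act as E3 ubiquitin ligases, which attach ubiquitin to a chosen substrate. The domain at the other end sets the substrate and divides the family into classes, of which the SPRY class is the largest. Many SPRY members are induced by interferon and either restrict viruses or tune RIG-I, MDA5, TLR and NF-κB signalling, and macrophages are among the cells in which this has been studied most.

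The overexpressed miRNAs are shown first, since they define the groups. Their mature sequences are from RefSeq (GRCm38.p6), where both lie on the plus strand of mouse chromosome 11. The capitals mark the seed, bases 2 to 8, which pairs with target RNAs, and the 3 seeds differ from each other.
mmu-miR-144-3p, chr11:78073047-78073066: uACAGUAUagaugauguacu
mmu-miR-144-5p, chr11:78073010-78073032: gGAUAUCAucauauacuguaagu
mmu-miR-451a, chr11:78073186-78073207: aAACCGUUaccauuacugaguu

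Expression was given as FPKM, fragments per kilobase of transcript, scaled by the mapped fragments of the sample. Fold changes are differences of log2(FPKM + 1), so that changes come out too small at low levels. The effect is strongest at about 1 FPKM or less but also reaches genes of a few FPKM. Trim5, with a ratio of mean FPKM of 2.27 in miR-144 TAMs, had a log2 fold change of only 0.94. Fold changes were tested with limma over 11419 genes, those with a mean of at least 1 FPKM over the 15 samples. A gene was called at a Benjamini-Hochberg adjusted p under 0.05. Of the 68 TRIM genes, 34 were tested, 24 were below that mean, and 10 were listed at 0 in all 15 samples. The 10 were Trim40, Trim42, Trim43b, Trim50, Trim52, Trim60, Trim61, Trim67, Trim71 and Trim80. The tested genes included 21 of the 38 SPRY members but only 1 of the 8 COS box members, a microtubule-binding class.

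The samples differed mainly between control and the miRNA groups, and the first principal component of all tested genes held 77.0% of the variance and separated control from both. Depth, estimated from the steps between low FPKM values, was 23.7 to 27.6 M fragments in control, 17.9 to 27.2 M in miR-144 and 15.5 to 30.3 M in miR-451a samples, and it is approximate, since only 42.8% to 55.8% of the low values fell on such a step (10% would by chance). All 7 macrophage markers were detected, with Csf1r at 393 to 727 FPKM, and 6 of them were higher and 1, Cd68, was lower in both miRNA groups. Of the other cells, Alb, Apoa1 and Ttr of hepatocytes were listed at 0 in all samples, as were Cd3e and Cd3g of T cells. The summed level of the 4 Kupffer cell markers was 3.30 to 3.75 FPKM in control, 17.01 to 49.9 in miR-144 and 15.7 to 47.02 in miR-451a samples, nearly all of it Cd5l, with Clec4f at 0. The 3 fibroblast markers summed to 97.2 to 121 FPKM in control, 131 to 190 in miR-144 and 166 to 210 in miR-451a samples. The 5 T cell markers summed to 1.12 to 1.55 FPKM in control, 5.52 to 8.81 in miR-144 and 5.14 to 9.45 in miR-451a samples, nearly all of it Cd4. The monocyte sums (0.134 to 0.271 FPKM in control, 1.10 to 1.404 in miR-144 and 1.48 to 2.01 in miR-451a samples), the B cell sums (0.138 to 0.375, 1.11 to 1.44 and 1.17 to 1.73), the endothelial sums (2.71 to 3.38, 3.53 to 4.499 and 3.41 to 5.37) and the dendritic cell sums (0.252 to 0.314, 0.444 to 0.67 and 0.424 to 0.643) were higher in both miRNA groups without overlap. The NK cell sums were lower, at 0.192 to 0.416 in control, 0.0887 to 0.168 in miR-144 and 0.0323 to 0.137 in miR-451a samples. Neutrophil and erythroid sums did not exceed 1.15 FPKM in any sample. The part of these marker differences in the TRIM results was not tested. In bulk samples a smaller share of cells that express a gene cannot be told apart from less of its RNA per cell.

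Most TRIM genes were higher in TAMs from both kinds of miRNA tumor than in control TAMs. In miR-144 TAMs, 28 of the 34 tested genes were higher and 2 were lower, against 47.1% of all tested genes called higher and 20.1% called lower. In miR-451a TAMs, 28 were higher and 2 lower as well, against 48.1% and 20.3% of all tested genes. As shares of the 34 tested genes, 82.4% were higher and 5.88% lower in each comparison. The share describes genes that passed the filter on low values and not the whole family. The median log2 fold change of the 34 was 0.44 for miR-144 and 0.45 for miR-451a, beside 0.13 and 0.14 for all tested genes. Both comparisons use the same 5 control samples, so each one's values are given side by side and neither is a repeat of the other. The summed FPKM of the 68 genes was 272 to 296 in control, 401 to 445 in miR-144 and 406 to 442 in miR-451a samples, and control did not overlap with either miRNA group. Single genes mostly did not overlap either: all 5 miR-144 samples lay above all 5 control samples for 25 of the 34 genes and below them for 2, and the same counts in miR-451a samples were 26 and 2. Over all 11419 tested genes, 37.9% lay above and 16% below control in this way in miR-144 samples, and 38.8% and 16.4% in miR-451a samples.

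**Figure D1:**
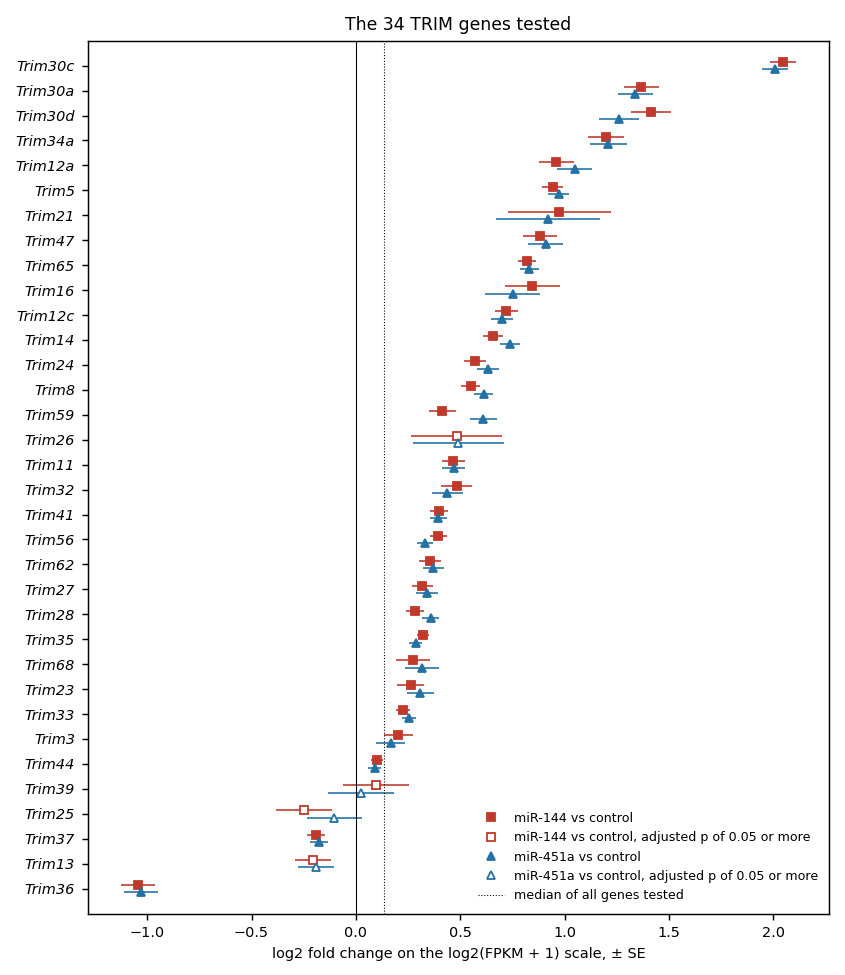
Log2 fold changes of the 34 tested TRIM genes on the log2(FPKM + 1) scale, with bars of 1 SE from limma; squares are miR-144 against control, triangles miR-451a against control, open symbols an adjusted p of 0.05 or more, and the dotted line is the median of all tested genes. The genes run from Trim30c at about 2 to Trim36 at about -1, and the values of both comparisons lie close to each other for nearly every gene.

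On the log2(FPKM + 1) scale, the largest rises were in a group of SPRY genes that lie next to each other on chromosome 7. This group was chosen by position after the values were seen. It holds 10 TRIM genes, in the order Trim6, Trim34a, Trim5, Trim12a, Trim34b, Trim12c, Trim30b, Trim30c, Trim30a and Trim30d, within chr7:104218793-104507849 (289.1 kb, GENCODE M21 annotation of GRCm38). The interval has 18 annotated genes, and its 10 protein-coding genes are these 10. Of the other genes there, only Gm16464, a processed pseudogene, had a mean of at least 1 FPKM, at 0.711 to 0.934 FPKM in control, 1.39 to 2.07 in miR-144 and 1.48 to 2.25 in miR-451a samples. Gm16464 lies inside Trim30d on the same strand, so its reads might not be told apart from those of Trim30d. The 7 cluster genes that were tested were all higher in both comparisons, with a median log2 fold change of 1.20 and 1.21. Outside the cluster, 21 of 27 tested TRIM genes were higher and 2 lower in each comparison, with a median of 0.36 in each. Of all tested genes, 47.1% and 48.1% were higher and 20.1% and 20.3% lower. The order of single genes depends on the scale. By ratio of mean FPKM, Trim16, outside the cluster, was above Trim34a in miR-144 TAMs (2.55 and 2.45). In miR-451a TAMs it was below Trim34a (2.36 and 2.47).

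Sequence around the start sites of the cluster genes is shown because genes of this kind are known to respond to interferon through a promoter element, the interferon-stimulated response element (ISRE). Promoter windows from RefSeq (GRCm38.p6), 250 bases before to 50 after a start site, were searched on both strands for the ISRE core GAAANNGAAA, and 53 of the 68 TRIM genes had a window. The letters occurred in the windows of 3.99% of 27025 genes, and in those of 6 of the 10 cluster genes (60%). Of the 43 TRIM genes outside the cluster with a window, tested or not, Trim2, Trim21 and Trim26 held them (6.98%). The sequences below run in the direction of the gene, with the core (or its reverse complement) in capitals and up to 30 bases on each side. The core began 10 bases after the RefSeq start site in Trim34a and Trim12a. Trim21 held 2 overlapping cores, 13 and 19 bases after the start site, of which the second is in capitals. In the windows shown for Trim5, Trim12c, Trim30a and Trim30d the core lay before the start site, and the window of another RefSeq start site of Trim30a, not shown, held it 2 bases after.
Trim34a, chr7:104244437-104244506, plus strand: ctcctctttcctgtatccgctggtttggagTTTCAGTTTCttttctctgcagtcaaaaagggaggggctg
Trim5, chr7:104288116-104288185, minus strand: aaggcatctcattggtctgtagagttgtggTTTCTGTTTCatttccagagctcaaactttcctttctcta
Trim12a, chr7:104315446-104315515, minus strand: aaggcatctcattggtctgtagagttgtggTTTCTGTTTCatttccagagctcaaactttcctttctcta
Trim12c, chr7:104353339-104353408, minus strand: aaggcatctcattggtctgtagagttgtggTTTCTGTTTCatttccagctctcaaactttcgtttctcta
Trim30a, chr7:104465190-104465259, minus strand: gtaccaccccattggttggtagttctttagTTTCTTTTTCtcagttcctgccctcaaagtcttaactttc
Trim30d, chr7:104507851-104507920, minus strand: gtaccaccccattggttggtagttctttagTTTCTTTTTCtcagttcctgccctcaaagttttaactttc
Trim21, chr7:102565433-102565493, minus strand: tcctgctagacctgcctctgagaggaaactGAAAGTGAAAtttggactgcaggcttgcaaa
Over these 70 bases Trim5 and Trim12a had 0 mismatches, Trim5 and Trim12c had 3, and Trim30a and Trim30d had 1, whereas Trim5 and Trim34a had 41. The 6 cluster genes thus hold the letters in 3 kinds of surrounding sequence, and near-identical windows are not separate occurrences. A match is a string of letters, not a bound site. No ISRE core occurred in the window of Trim30c.

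Trim30c was nearly silent in control TAMs and clearly expressed in the others. It stood at 0.718, 0.534, 0.817, 0.764 and 0.4997 FPKM in the control samples, at 5.42, 5.59, 6.76, 5.78 and 5.87 in the miR-144 samples and at 5.76, 5.62, 5.96, 5.59 and 5.48 in the miR-451a samples. No miRNA sample came near a control sample. The ratio of mean FPKM was 8.83 for miR-144 and 8.53 for miR-451a, and the log2 fold changes were 2.05 ± 0.06 (SE) and 2.01 ± 0.06 (adjusted p = 3.06e-13 and 3.59e-13). Its mean in control, 0.667 ± 0.141 FPKM (SD, n = 5), was under the minimum of 1 FPKM, so it was among the tested genes only through the miRNA groups.

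Trim30a, which is known to restrain TLR signalling to NF-κB through TAB2 and TAB3, had the highest level of the cluster. Its FPKM was 23.5, 25.7, 21.1, 19.4 and 23.3 in control, 63.1, 62.6, 57.6, 51.5 and 64.4 in miR-144 and 61.7, 63, 53.9, 51.1 and 64.1 in miR-451a samples. The highest control sample lay far below the lowest sample of either miRNA group. On the log2 scale it rose by 1.37 ± 0.08 and 1.34 ± 0.08 (adjusted p = 1.35e-09 and 1.61e-09), and the ratios of mean FPKM were 2.65 and 2.60.

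Its neighbour Trim30d showed 7.62, 8.66, 6.80, 6.499 and 7.76 FPKM in control, 23.6, 23.0, 20.1, 18.6 and 22.7 in miR-144 and 23.1, 21.1, 15.99, 18.02 and 18.5 in miR-451a samples. Again every miRNA sample lay above every control sample, and the miR-451a samples spread furthest (SD 2.78 FPKM, n = 5). It rose on the log2 scale by 1.42 ± 0.10 and 1.26 ± 0.10 (adjusted p = 4.18e-09 and 1.53e-08). Trim30a and Trim30d share little sequence over stretches of 50 bases, a length chosen here: 6.53% and 8.29% of the 50-base stretches of their transcripts occur in other genes.

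Trim34a, an interferon-induced SPRY gene, was at 8.99, 8.97, 8.03, 7.44 and 9.53 FPKM in control, 21.6, 23.4, 19.7, 17.9 and 22.8 in miR-144 and 22.8, 23.4, 18.6, 18.6 and 22.7 in miR-451a samples. The groups did not overlap, and the log2 fold changes were 1.20 ± 0.09 and 1.21 ± 0.09 (adjusted p = 9.84e-09 and 8.46e-09). Trim34a is uncertain as a single gene, since 41.3% of its 50-base stretches also occur in Trim34b, and the counting could have split reads between them.

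Trim12a and Trim5 are mouse relatives of the primate restriction factor TRIM5α, which binds incoming retroviral capsids. Trim12a was at 3.81, 4.30, 3.58, 3.19 and 3.46 FPKM in control, 8.74, 6.48, 8.51, 7.89 and 8.87 in miR-144 and 8.81, 9.71, 7.81, 7.77 and 9.18 in miR-451a samples. For Trim5 the values were 2.48, 2.94, 2.52, 2.74 and 2.54 in control, 6.06, 6.81, 5.78, 5.68 and 5.73 in miR-144 and 6.32, 6.52, 5.85, 5.84 and 6.18 in miR-451a samples. Both genes separated the miRNA groups from control without overlap. Trim12a rose by 0.96 ± 0.08 and 1.05 ± 0.08 on the log2 scale (adjusted p = 8.48e-08 and 2.91e-08), and Trim5 by 0.94 ± 0.05 and 0.97 ± 0.05 (adjusted p = 2.54e-10 and 1.69e-10). The third relative, Trim12c, rose less, with log2 fold changes of 0.72 and 0.70. Trim5 and Trim12c share sequence, with 38.1% and 32.7% of their 50-base stretches found in other genes, whereas Trim12a shares 4.45%.

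The remaining cluster genes, Trim30b, Trim34b and Trim6, were below the mean of 1 FPKM and were tested in a fit over all 29540 genes above 0 in at least 1 sample. Trim30b was at 0.0223, 0.0616, 0.0151, 0.0218 and 0.0307 FPKM in control, 0.772, 0.597, 0.542, 0.515 and 0.523 in miR-144 and 0.600, 0.737, 0.514, 0.462 and 0.586 in miR-451a samples. In control, 4 of the 5 values were under 0.0451 FPKM, the level that 3 fragments give this gene in the shallowest sample. Trim34b had means of 0.164 ± 0.114 (SD, n = 5), 0.798 ± 0.144 and 0.808 ± 0.104 FPKM in control, miR-144 and miR-451a samples, and Trim6 had 0.366 ± 0.0377, 0.668 ± 0.0871 and 0.705 ± 0.0351 FPKM. All 3 were called higher in both comparisons, beside 23.1% and 24.5% of the 29540 genes, and did not overlap with control. For Trim34b, 59% of the 50-base stretches occur in Trim34a.

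**Figure D2:**
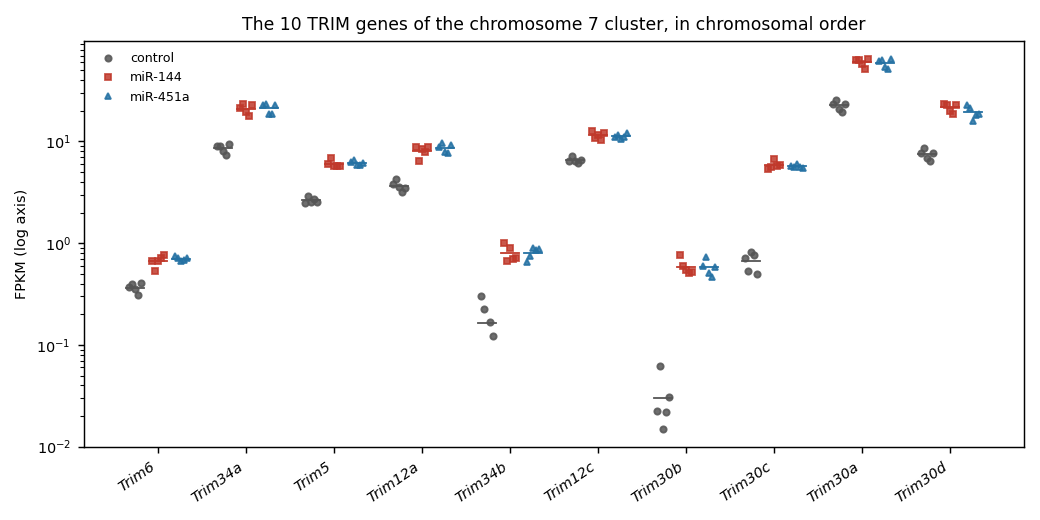
FPKM (log axis) of the 10 cluster genes in chromosomal order; each point is 1 sample, the short lines are group means, circles are control, squares miR-144 and triangles miR-451a, and the control sample of Trim34b listed at 0 is not drawn. In all 10 genes the 10 miRNA samples sit above the 5 control samples, and the levels span from under 0.1 FPKM (Trim30b in control) to 64.4 FPKM (Trim30a).

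Outside the cluster, the interferon-inducible members varied in their response. A list of 15 interferon-inducible TRIM genes, which includes the cluster genes, had 12 members tested. Of these, 10 were higher and 0 lower in each comparison, beside 47.1% and 48.1% of all tested genes higher and 20.1% and 20.3% lower. The median log2 fold change was 0.95 in both. Of the 10, 7 are the cluster genes. The 5 of these outside the cluster, Trim14, Trim21, Trim25, Trim26 and Trim56, had 3 higher and medians of 0.48 and 0.49. Trim14, an adaptor at MAVS, rose by 0.66 and 0.74 on the log2 scale, with no overlap with control. Nans, which overlaps Trim14 on the opposite strand, was at 20.4 to 22.2 FPKM in control and 8.59 to 9.33 in the miRNA groups, so the 2 genes of this locus moved in opposite directions. Strand use in the counting is not given, and reads of overlapping genes might not be told apart. Trim56, which has no SPRY domain and acts on cGAS and STING, rose by 0.40 and 0.33.

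Trim21, a cytosolic antibody receptor that directs antibody-coated virus to the proteasome, was higher in both miRNA groups but split into separate levels inside each group. Its FPKM was 5.07, 2.45, 4.97, 2.53 and 5.32 in control, 10.6, 10.4, 9.36, 4.42 and 10.04 in miR-144 and 9.33, 10.2, 9.25, 8.71 and 4.89 in miR-451a samples. A single low sample in each miRNA group lay within the control range, and 2 control samples were at about the 2.5 FPKM level. The log2 fold changes were 0.97 ± 0.25 and 0.92 ± 0.25 (adjusted p = 0.00283 and 0.00413), with the largest SE of the 34 genes.

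Trim26, a SPRY member linked to IRF3 turnover, had the same kind of split. Its FPKM was 5.61, 9.57, 9.58, 6.10 and 9.72 in control, 14.5, 8.36, 13.4, 8.18 and 14.6 in miR-144 and 14.4, 8.22, 8.48, 14.1 and 14.2 in miR-451a samples, so the low level of the miRNA groups lay inside the control range. The log2 fold changes of 0.48 ± 0.22 and 0.49 ± 0.22 did not pass the test (adjusted p = 0.0622 and 0.0575). They did pass without either low miR-144 sample (adjusted p = 0.0298 and 0.0336), and in miR-451a without either low miR-451a sample or control sample 5 (adjusted p = 0.0278 to 0.048). Rescaling to TPM also made calls of both (0.59 and 0.61, adjusted p = 0.0332 and 0.0277). Trim39, another SPRY member, was at 1.59, 2.82, 2.74, 1.57 and 1.70 FPKM in control, 2.38, 1.91, 3.18, 1.97 and 1.94 in miR-144 and 1.999, 1.56, 1.87, 1.91 and 3.37 in miR-451a samples. Its high values occurred in all 3 groups, and its log2 fold changes were 0.10 ± 0.16 and 0.02 ± 0.16 (adjusted p = 0.610 and 0.898), with no call and a sign that turned under median centring and quantile normalization. In miR-451a TAMs the sign also turned without control sample 1, 4 or 5 or miR-451a sample 5 (-0.10 to -0.018). The low samples of Trim21 and Trim26 coincided in control sample 4 and miR-144 sample 4 and differed elsewhere.

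Trim25, the interferon-inducible ligase known for activating RIG-I, had the highest mean of the family (50.5 FPKM over all samples) and did not rise. Its FPKM was 56.4, 54.6, 53.8, 51.4 and 55.2 in control, 52.5, 28.7, 48.6, 46.8 and 56.4 in miR-144 and 51.3, 51.6, 47.03, 45.98 and 56.98 in miR-451a samples. The ranges overlapped, and miR-144 sample 2 stood far below all others. The log2 fold changes were -0.25 ± 0.13 and -0.10 ± 0.13 (adjusted p = 0.112 and 0.512), and the first became a call after each sample was centred on its median (adjusted p = 0.0224) or without miR-144 sample 5 (adjusted p = 0.044). Without miR-144 sample 2 it was only -0.088 (adjusted p = 0.243). In levels per length, Trim25 led the family in control TAMs, whereas in both miRNA groups Trim30a had the highest mean, 59.8 ± 5.31 and 58.8 ± 5.88 FPKM (SD, n = 5) beside 46.6 ± 10.7 and 50.6 ± 4.37 for Trim25. The ranges of these 2 genes overlapped within each miRNA group.

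**Figure D3:**
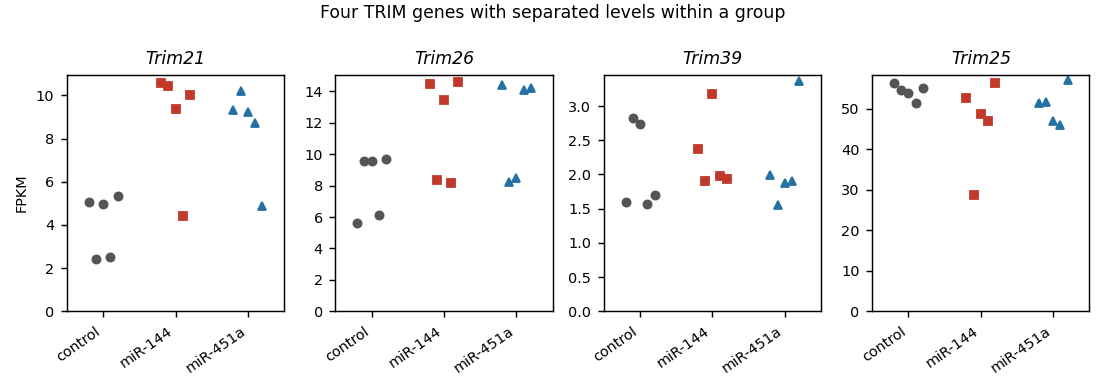
FPKM of Trim21, Trim26, Trim39 and Trim25 in each sample (points; linear axes from 0; circles control, squares miR-144, triangles miR-451a). Trim21 has 2 low samples in control and 1 in each miRNA group, Trim26 has 2 low samples in each group, and a single miR-144 sample of Trim25 lies at 28.7 FPKM against 45.98 to 56.98 in the other 14.

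Every other tested SPRY member was called higher in both comparisons. In all, 18 of 21 tested SPRY genes were higher and 0 lower in each comparison, with a median log2 fold change of 0.72 and 0.74, beside 47.1% and 48.1% of all tested genes higher and 20.1% and 20.3% lower. Trim47 rose by 0.88 and 0.91 and Trim65, a ligase known to act on MDA5, by 0.82 and 0.83. These 2 genes overlap on the same strand, and 4.49% of the 50-base stretches of Trim65 occur in Trim47. Trim16, which lacks a RING domain and takes part in autophagy of damaged organelles, rose by 0.85 and 0.75 from a low level of 1.06 ± 0.275 FPKM (SD, n = 5) in control, and by 1.29 and 1.16 with a pseudocount of 0.1. Fbxw10 overlaps Trim16 on the same strand, and reads of both genes might not be told apart. Smaller rises were found for Trim11 (0.47 and 0.47), Trim41 (0.40 and 0.40), Trim62 (0.36 and 0.37), Trim27 (0.32 and 0.34), Trim35 (0.32 and 0.29) and Trim68 (0.27 and 0.32). Rack1, which overlaps Trim41 on the opposite strand, was at 94.6 to 127 FPKM in control and 109 to 147 in the miRNA groups. After median centring the rises of Trim41 (0.27 and 0.25), Trim62 (0.22 and 0.23), Trim27 (0.19 and 0.196) and Trim35 (0.19 and 0.14) were smaller but still called. Trim68 was not called after median centring (adjusted p = 0.156 and 0.0801) or quantile normalization.

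**Figure D4:**
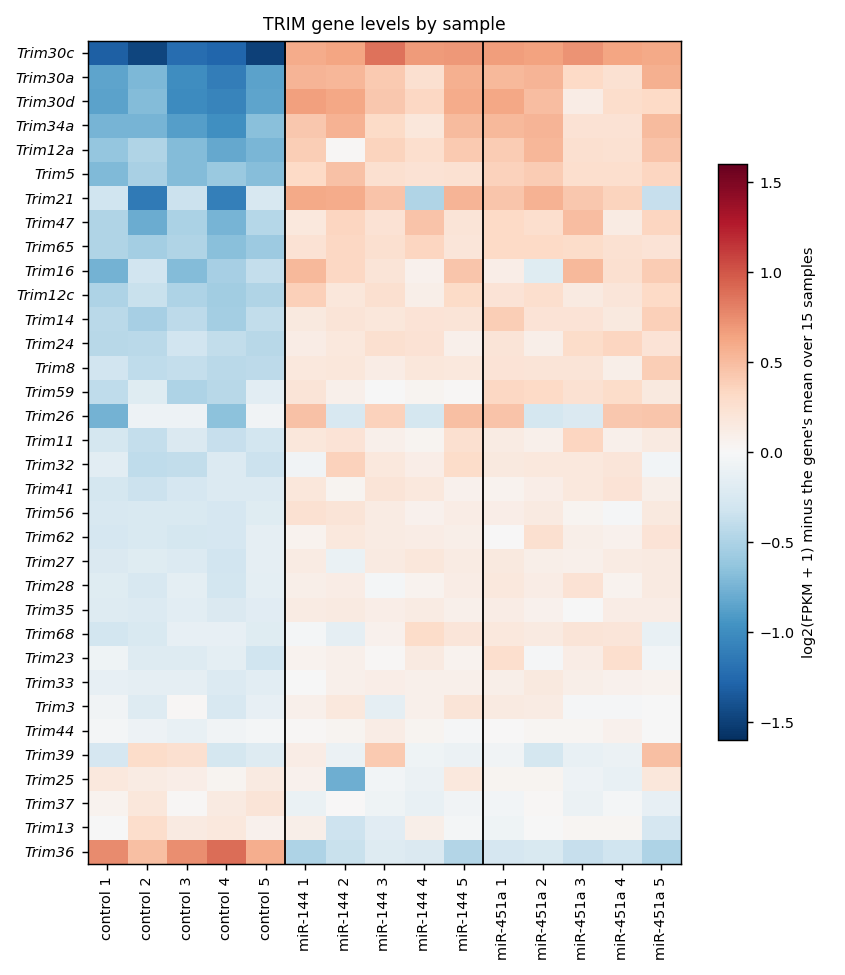
Log2(FPKM + 1) of the 34 tested TRIM genes in each of the 15 samples minus the mean of the gene over all samples (colour, red above and blue below), ordered by mean log2 fold change. Control samples are blue to near white for the genes from Trim30c down to Trim33, the 10 miRNA samples are mostly red, Trim36 shows the reverse, and the rows of Trim21, Trim26 and Trim39 are mixed within groups.

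The PHD and bromodomain class works in the nucleus as transcriptional cofactors rather than on signalling proteins. All 3 tested members rose, beside 47.1% and 48.1% of all tested genes called higher. They were Trim24 (TIF1α, a nuclear receptor cofactor), Trim28 (KAP1, the corepressor of KRAB zinc finger proteins) and Trim33 (TIF1γ, a SMAD regulator), while Trim66 did not exceed 0.152 FPKM. Trim24 was at 1.39, 1.41, 1.63, 1.47 and 1.39 FPKM in control, 2.52, 2.65, 2.89, 2.79 and 2.42 in miR-144 and 2.73, 2.45, 2.99, 3.13 and 2.77 in miR-451a samples. It rose most of the 3, by 0.57 ± 0.05 and 0.63 ± 0.05 on the log2 scale (adjusted p = 1.54e-07 and 4.48e-08).

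Trim28 was the most abundant of this class. Its FPKM was 19.4, 18.6, 20.03, 18.1 and 20.03 in control, 23.9, 24.4, 21.8, 23.4 and 24.4 in miR-144 and 25.2, 24.5, 26.6, 23.3 and 24.98 in miR-451a samples, which did not overlap with control although the ratios of means were only 1.23 and 1.30. On the log2 scale Trim28 rose by 0.28 ± 0.04 and 0.36 ± 0.04 (adjusted p = 2.54e-05 and 2.08e-06). Zbtb45, which overlaps Trim28 on the opposite strand, was at 2.09 to 2.74 FPKM in control and 2.74 to 4.38 in the miRNA groups. Trim33 was at 4.39, 4.36, 4.31, 4.06 and 4.26 FPKM in control, 4.86, 5.22, 5.33, 5.23 and 5.22 in miR-144 and 5.28, 5.59, 5.31, 5.19 and 5.12 in miR-451a samples. It too did not overlap, and it rose by 0.23 ± 0.03 and 0.26 ± 0.03 on the log2 scale (adjusted p = 1.77e-05 and 4.64e-06). After median centring the rises were smaller but still called, at 0.15 and 0.21 for Trim28 and 0.092 and 0.11 for Trim33.

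Among the remaining classes, the NHL members, which bind RNA or cytoskeletal proteins, had 2 tested genes. Trim32 rose by 0.48 and 0.44, and Trim3 by 0.20 and 0.17, although Trim3 was not called after median centring (adjusted p = 0.399 and 0.786) or quantile normalization. Its call in miR-451a TAMs (adjusted p = 0.0417) also ended without any one of control samples 2, 4 and 5, miR-144 sample 4 and miR-451a samples 1 and 2 (adjusted p = 0.0502 to 0.107). Trim23, which carries an ARF GTPase domain, rose by 0.26 and 0.31 and was not called after quantile normalization (adjusted p = 0.218 and 0.0874) or, for miR-144, after median centring (adjusted p = 0.101). Trim59, a membrane-anchored member, rose by 0.41 and 0.61, and Trim8, a RING member that modulates STAT3 and NF-κB signalling, by 0.55 and 0.61. Trim44, which lacks a RING domain, was higher by 0.10 and 0.09, less than the median of all genes, and its sign turned after median centring (-0.032 and -0.055, not called). Trim13, a ligase of the endoplasmic reticulum membrane, was at -0.20 and -0.19 and did not pass (adjusted p = 0.0502 and 0.0627), but was called lower after median centring (adjusted p = 0.00331 and 0.00327) and without 1 of several single samples.

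Falls were rare. Trim36, a COS box ligase that associates with microtubules, was at 5.55, 4.41, 5.48, 6.19 and 4.79 FPKM in control, 1.75, 2.04, 2.37, 2.29 and 1.79 in miR-144 and 2.23, 2.29, 1.99, 2.11 and 1.75 in miR-451a samples. Every miRNA sample was below every control sample, the log2 fold changes were -1.04 ± 0.08 and -1.03 ± 0.08 (adjusted p = 2.28e-08 and 2.53e-08), and the ratios of means were 0.387 and 0.392. Trim37, a MATH domain ligase of centrosomes and peroxisomes, fell much less. Its FPKM was 3.59, 3.98, 3.48, 3.85 and 4.08 in control, 3.10, 3.404, 3.21, 3.07 and 3.22 in miR-144 and 3.28, 3.45, 3.14, 3.32 and 3.02 in miR-451a samples. The groups were separated by a narrow gap, and the differences on the log2 scale were -0.19 ± 0.04 and -0.18 ± 0.04 (adjusted p = 0.00105 and 0.00183).

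Of the 24 genes below the mean of 1 FPKM, 10 did not reach 0.1 FPKM in any sample. In 9 of the 24 no sample exceeded the level that 3 fragments give. In the fit without the filter, 5 of the 24 were higher and 1 lower in miR-144 TAMs, beside 23.1% and 9.65% of all 29540 genes, and 6 were higher and 1 lower in miR-451a TAMs, beside 24.5% and 9.69%. The higher genes were Trim30b, Trim34b and Trim6 of the cluster, Trim17 and Trim45 in both comparisons, and Trim46 in miR-451a TAMs (adjusted p = 0.0274, and 0.245 in miR-144 TAMs). For Trim17, 18.3% of the 50-base stretches occur in Hist3h2a, which overlaps it. Krtcap2 overlaps Trim46 on the opposite strand.

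The lower gene was Trim29, which lacks a RING domain and is known in alveolar macrophages as a brake on innate signalling. It was singled out after its values were seen. Its FPKM was 1.48, 1.34, 2.21, 1.85 and 1.58 in control, 0.175, 0.181, 0.111, 0.117 and 0.0352 in miR-144 and 0.108, 0.127, 0.147, 0.104 and 0.178 in miR-451a samples. It was thus above 1 FPKM in every control sample and near the limit of 3 fragments (0.0706 FPKM in the shallowest sample) in the others. The log2 fold changes were -1.25 ± 0.07 and -1.24 ± 0.07 (adjusted p = 4.42e-09 and 4.78e-09), and the ratios of mean FPKM were 0.0732 and 0.0785. A minimum mean over all 15 samples kept this gene out of the main test.

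**Figure D5:**
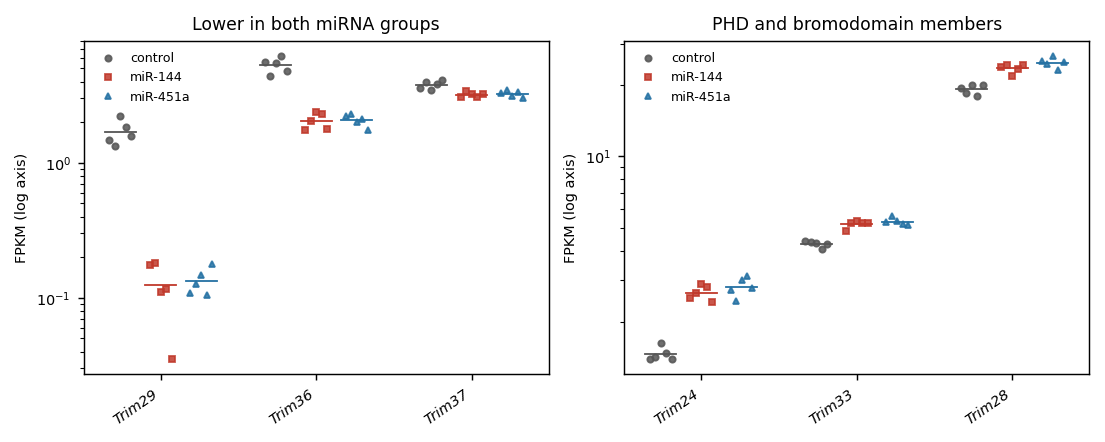
FPKM (log axes) in each sample of the genes that were lower in both miRNA groups (left: Trim29, Trim36, Trim37) and of the tested PHD and bromodomain members (right: Trim24, Trim33, Trim28); symbols as group markers in the legend and short lines for group means. Trim29 drops from 1.34 or more to 0.181 or less, Trim36 from 4.41 or more to 2.37 or less, and the right panel shows small shifts with no overlap with control.

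TAMs from miR-144 and miR-451a tumors did not differ detectably in any TRIM gene. None of the 34 was called in miR-451a against miR-144 (0 of 11419 genes, 0%), where limma gave 596 genes at an unadjusted p under 0.05. The differences ran from -0.16 (Trim30d) to 0.20 (Trim59) on the log2 scale. Trim59 was the only one with an unadjusted p under 0.05 (0.00866 before and 0.899 after adjustment by limma). Its FPKM was 2.88, 2.58, 2.37, 2.48 and 2.41 in miR-144 and 3.23, 3.21, 2.998, 3.13 and 2.76 in miR-451a samples, which overlap at the lowest miR-451a sample, and 1.40 to 1.98 in control. A missing call does not show that the groups were alike. 

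Genes of RIG-I and interferon signalling, the pathways in which many TRIM ligases act, were listed for comparison. Of 25 tested, 21 were higher and 1 lower in each comparison, beside 47.1% and 48.1% of all tested genes higher and 20.1% and 20.3% lower. The median log2 fold change was 0.68 and 0.57, beside 0.13 and 0.14 for all tested genes. Ddx58, which encodes RIG-I, rose by 1.37 and 1.40, and Ifih1, which encodes MDA5, by 0.89 and 0.87. The transcription factor Irf7 (2.08 and 2.11) and the interferon-induced Mx1 (2.74 and 2.62) and Isg15 (1.52 and 1.49) rose too. Of the Trim30a targets, Tab2 rose by 0.79 and 0.57, and Tab3 by only 0.14 and 0.18, near the medians of all tested genes. The miR-451a samples of Tab2 spread widely, with an SD of 6.73 FPKM beside 0.396 in control. The adaptor Ticam1 (TRIF) fell by 0.72 and 0.68 on the log2 scale. Rnf135 (Riplet), a ligase for RIG-I outside the TRIM symbols, rose by 0.68 and 0.70 while Trim25 did not rise.

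The enzymes that supply ubiquitin to TRIM ligases moved little. Of 17 tested, 4 were higher (Ube2d1, Ube2e3, Ube2w and Uba6) and 1, Ubb, was lower in each comparison, and the median log2 fold change was 0.01 and 0.02, below the 0.13 and 0.14 of all genes, of which 47.1% and 48.1% were higher and 20.1% and 20.3% lower. Of 15 tested partners of Trim28 in KRAB-directed repression, 10 were higher and 2 lower in miR-144 TAMs and 11 higher and 2 lower in miR-451a TAMs, with a median of 0.26 in both, beside the 47.1% to 48.1% higher and 20.1% to 20.3% lower of all tested genes. The histone methyltransferase Setdb1 rose by 0.32 and 0.41 and the deacetylase Hdac1 by 0.52 and 0.50, while the remodeller Chd4 fell by 0.25 and 0.23 and Mdm2, a regulator of p53, by 0.24 and 0.27 on the log2 scale. Of the TRIM family genes with other symbols, Pml rose by 0.92 and 0.94, from 4.84 FPKM in control to means of 10.1 and 10.4, and Mid1 and Mefv did not pass the test.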

How the data were processed

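RNA-seq of 15 TAM samples was analysed, 5 in each of 3 groups taken from the sample labels. The authors deposited FPKM per gene, per the labels with FastQC 0.11.2, STAR and StringTie named in the submitters' processing notes. The genome build, annotation and strand setting are not given in the sources used here. All 68 identifiers occur in GENCODE M21 (GRCm38), which gave the coordinates.

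Because the values are FPKM, no count model was used. limma 3.58.1 (R 4.3.3), with a mean-variance trend, was fitted to log2(FPKM + 1) of the 3 groups together, and Benjamini-Hochberg adjustment was over all 11419 genes that averaged at least 1 FPKM. The test is two-sided. Genes below that mean were tested over 29540 genes. Depth was implied from steps of low FPKM values of genes with 1 transcript of at least 1000 bases. The limit of a gene was 3 fragments, which covers counting error only.

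Values in every sample are given for the 6 largest rises and 6 largest falls called in both comparisons (only 2 falls were called), for Trim21, Trim24, Trim25, Trim28, Trim30a and Trim33, and, chosen after their values were seen, for Trim26, Trim29, Trim30b, Trim39 and Trim59. The values of 1 listed gene and of 1 further motif searched are not reported here, while the counts over the gene's list include it. The members and gene lists were chosen with earlier results of these data known. The choices varied were the pseudocount (0.1), the filter on low values (none, or a mean of 5 FPKM), the scaling (centring on sample medians, quantile normalization or TPM), a replicate block, the trend (none), the groups fitted (only the 2 compared), the size of the change (an absolute log2 fold change of at least 0.5) and the samples (each left out in turn). Python 3.11.15, numpy 2.4.6, pandas 2.3.3 and matplotlib 3.10.9 were used.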

Additional observations from a re-analysis of the deposited data

Results flagged for a closer look

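In 10 of 102 groups of 5 samples (34 genes in 3 groups) the highest or lowest sample stood apart from its nearest neighbour by more than 0.71 of the whole range of the group, where chance alone would give about 5.1 (1 in 20). Trim21 stood low in miR-144 sample 4 (4.42 FPKM, with the next at 9.36) and in miR-451a sample 5 (4.89, next 8.71). Trim39 stood high in miR-451a sample 5 (3.37, next 1.999), where Trim32 (5.55, next 6.51) and Trim68 (1.74, next 2.27) were low. In miR-144 samples, Trim27 was low in sample 2 (4.82, next 5.89), Trim33 in sample 1 (4.86, next 5.22) and Trim8 in sample 3 (26.6, next 27.5). Trim11 was high in miR-451a sample 3 (11.8, next 10.2), and Trim62 was high in control sample 5 (1.51, next 1.33). The causes were not tested.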

How the results depend on the processing

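Of 68 results of single TRIM genes against control, 55 kept their side of the threshold in every alternative that was run, and 53 kept their direction too. Over 1606 repeats, 23 lost a call, 21 gained one and 10 turned sign. Of the 10, 2 were called as reported, both of them Trim44 after median centring (-0.032 and -0.055 on the log2 scale), and 8 were Trim39, which was called in no alternative. The 30 calls of each comparison became 19 and 19 with a minimum mean of 5 FPKM, under which fewer genes are tested, and 15 (miR-144) and 16 (miR-451a) with an absolute log2 fold change of at least 0.5, of which 14 and 15 were higher and 1 and 1 lower. The 2 falls became 4 in miR-144 TAMs after median centring and 0 and 0 with the minimum of 5 FPKM. Median centring removed the shift of 0.13 and 0.14 in the median of all genes and gave 24 higher and 4 lower (miR-144) and 25 and 3 (miR-451a), with 50.01% and 49.6% of all calls higher beside 70.1% and 70.4% as reported. It also moved 12 called genes by over 1.5 times in each comparison: Trim23, Trim27, Trim28, Trim3, Trim33, Trim35, Trim41, Trim44, Trim56, Trim62 and Trim68 towards or past 0, and Trim37 away from it. Quantile normalization gave 24 and 3 in both, and TPM 29 and 2 in both, with 76.5% and 77.3% of all calls higher. Quantile normalization moved 9 (miR-144) and 10 (miR-451a) called genes by over 1.5 times, of which Trim59 in miR-144 (0.24) and Trim32 in miR-451a TAMs (0.29) were not among the 12. TPM moved 4 in each upwards (Trim44, Trim62 and Trim68, with Trim23 in miR-144 and Trim3 in miR-451a TAMs), and a pseudocount of 0.1 moved Trim16 and Trim62 upwards in both. Over all genes, 7668 and 7804 calls became 4776 and 4821 with the minimum of 5 FPKM. Leaving out each sample in turn gave 30 to 32 and 29 to 31 TRIM calls, and 0 to 2 calls over all genes between the miRNA groups, where 2 arose without miR-144 sample 4, miR-144 sample 5 or miR-451a sample 3. Trim13 in miR-144 TAMs was called without control sample 1, miR-144 sample 1 or 4 or miR-451a sample 5 (adjusted p = 0.0263 to 0.0363), and in miR-451a TAMs without control sample 1 or miR-144 sample 2 (adjusted p = 0.0418 and 0.0339). A fit with a replicate block gave 30 and 29 TRIM calls, 7711 and 7859 over all genes and 0 between the miRNA groups, and among TRIM genes only Trim3 in miR-451a TAMs was lost (adjusted p = 0.0585), as it was without the filter (0.0804). The numbers were not treated as pairing the samples, since 8 of 15 same-numbered pairs correlated above 0.1 in their deviations and the rest did not (range -0.15 to 0.264, median 0.108, beside a median of -0.041 for other numbers), and the labels do not say what a number shares. Depth limits the 9 weak genes that stay at or under 3 fragments, of which no direction can be read.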
